A study of Mus musculus with 22 samples.

Results

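The gene Trp53, which encodes p53, and 9 genes known as p53 targets were followed through ventricular cardiomyocytes of 6 groups of male mice. They are Cdkn1a, Phlda3, Mdm2, Ccng1, Bax, Trp53inp1, Eda2r, Bbc3 and Sesn2, and together with Trp53 they make 10 of the 46813 genes listed in all 3 deposited comparisons. Members were selected by gene symbol. Cdkn1a and Phlda3 were selected on their higher counts in SAP97 KO cardiomyocytes, so the values of members in that comparison, and in any that includes SAP97 KO, are given as a description without a test.

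RNA was sequenced from 22 mice, and 21 libraries were used because MDX replicate 1, which had few reads, was left out. CASK KO mice (n = 3) carry MHC-Cre and CASK fl/fl, and CASK control mice (n = 3) carry MHC-Cre alone, so both CASK groups have Cre. SAP97 KO mice (n = 3) carry MHC-Cre and SAP97 fl/fl, and SAP97 control mice (n = 3) carry SAP97 fl/fl without Cre. These 4 groups are on a mixed strain. MDX mice (n = 4) are MDX -/- on C57Bl/6Ros, except replicate 5, and MDX control mice (n = 5) are wild type C57Bl/6J or C57Bl/6, except replicate 5. Both replicates 5 are on a mixed strain backcrossed 3 times. No mouse of either MDX group carries Cre. Ages were 10.1 to 14.7 weeks, apart from MDX replicate 4 at 17.7 weeks. Cre is driven by the alpha-MHC promoter, which is active in cardiomyocytes, and the MDX mutation lies in the dystrophin gene. A table of the study writes the SAP97 controls as carrying Cre, whereas its methods and the sample labels give them without it.

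The transcription factor p53 is made at all times and broken down through Mdm2, a ubiquitin ligase that is itself a p53 target, so its protein and not its messenger is the usual point of control. When DNA is damaged, p53 is stabilised and binds response elements near its targets. Some targets halt the cell cycle, others promote apoptosis, and others limit p53 or growth signalling. Cre recombinase cuts DNA at loxP sites and at sites that resemble them, and mice that carry Cre alone are used as controls for this reason.

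Promoter sequences from RefSeq on GRCm38.p6 were searched to show where the members hold the letters that p53 binds. The p53 response element is a pair of half-sites of 10 bases, and here both half-sites had to be adjacent, with the C and the G of each core kept. The element reads alike on both strands. Windows of 250 bases before to 50 bases after a start were found for 9 of the 10 members, 12 windows in all. A run within 1 mismatch was present in 2 of these 12 windows and in 0.067% of all 32851 windows, and a run within 3 mismatches in 4 of the 12 and in 1.38% of all windows. A match describes letters and does not show binding. Sites outside these windows, or with bases between the half-sites, were not searched. The lack of a close run therefore does not show that a member lacks a site.

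The window of Cdkn1a that holds the closest run lies before the upstream of its 2 annotated starts, 2790 bases before the other start. It is printed from chr17:29090729-29090978 on the plus strand, with the run in capitals, 51 bases before the start. Shorter stretches follow for Ccng1 (chr11:40755442-40755501, minus strand, 195 bases before its start, 1 mismatch), Trp53 (chr11:69580264-69580323, plus strand, 75 bases before, 3 mismatches) and Bbc3 (chr7:16309466-16309525, plus strand, 97 bases before, 3 mismatches).
Cdkn1a: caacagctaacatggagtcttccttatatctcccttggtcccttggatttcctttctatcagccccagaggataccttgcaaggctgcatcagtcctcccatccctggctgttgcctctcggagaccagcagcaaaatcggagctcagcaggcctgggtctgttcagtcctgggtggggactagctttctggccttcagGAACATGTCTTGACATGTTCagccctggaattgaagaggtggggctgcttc
Ccng1: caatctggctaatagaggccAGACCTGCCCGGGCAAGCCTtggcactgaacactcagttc
Trp53: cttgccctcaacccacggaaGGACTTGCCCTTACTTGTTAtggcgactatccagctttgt
Bbc3: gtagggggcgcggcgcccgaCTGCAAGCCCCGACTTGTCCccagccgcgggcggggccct
The closest run of Phlda3 in its window had 5 mismatches, and those of Bax, Eda2r, Mdm2 and Sesn2 had 7 to 9. Cdkn1a and Ccng1, the members within 1 mismatch, are set beside Phlda3 and Eda2r in the levels that follow.

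The libraries held 24253610 to 42159185 counts in genes, with a median of 32674690, and all members had counts in every library. Cardiomyocyte markers (Myh6, Tnnt2, Actc1, Ttn, Ryr2 and Tnni3) summed to 47670 to 117740 CPM in each library, where CPM is the count of a gene scaled to the size of its library. The largest sum of any other marker list was 531 CPM, for atrial genes in a CASK control library. Lymphocyte markers summed to at most 0.343 CPM, with Cd3e at 0 in every library of both CASK groups. The targeted genes followed their labels. Cask averaged 1.50 ± 0.891 CPM in CASK KO and 9.11 ± 0.610 CPM in CASK control (SD, n = 3 each), Dlg1, the gene of SAP97, 12.1 ± 1.32 CPM in SAP97 KO and 60.5 ± 5.46 CPM in SAP97 control (SD, n = 3 each), and Dmd 104 ± 24.7 CPM in MDX (SD, n = 4) and 298 ± 36.6 CPM in MDX control (SD, n = 5). The 3 CASK control libraries stood apart from the other 18. Their Nppa, which encodes atrial natriuretic peptide, reached 160 to 526 CPM, and their Dmd only 42.0 to 50.2 CPM, below every MDX library. The comparison of the CASK with the MDX groups is therefore also given for CASK KO alone. Dmd was at 143 to 201 CPM in CASK KO and 168 to 195 CPM in SAP97 KO. Both ranges lay below every SAP97 control (300 to 399 CPM) and MDX control (234 to 327 CPM) library. Nppa was at 26.3 to 37.7 CPM in CASK KO and 23.0 to 69.3 CPM in SAP97 KO. It was at 8.63 to 12.3 CPM in SAP97 control, 7.42 to 31.0 CPM in MDX and 7.12 to 22.8 CPM in MDX control. Library sizes were adjusted by TMM across the 21 libraries. In RNA from many cells, fewer cells of a type and less RNA per cell cannot be told apart.

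Phlda3 and Eda2r separated the libraries by Cre. All 9 libraries with Cre lay above all 12 without it for these 2 members, which held for 0.144% of all 15985 genes tested across the lines. Phlda3 encodes a pleckstrin-homology protein that restrains Akt signalling, and Eda2r a receptor of the tumour necrosis factor family. For the other 8 members the libraries with and without Cre overlapped. Because this split includes SAP97 KO, it is a description.

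**Figure D1:**
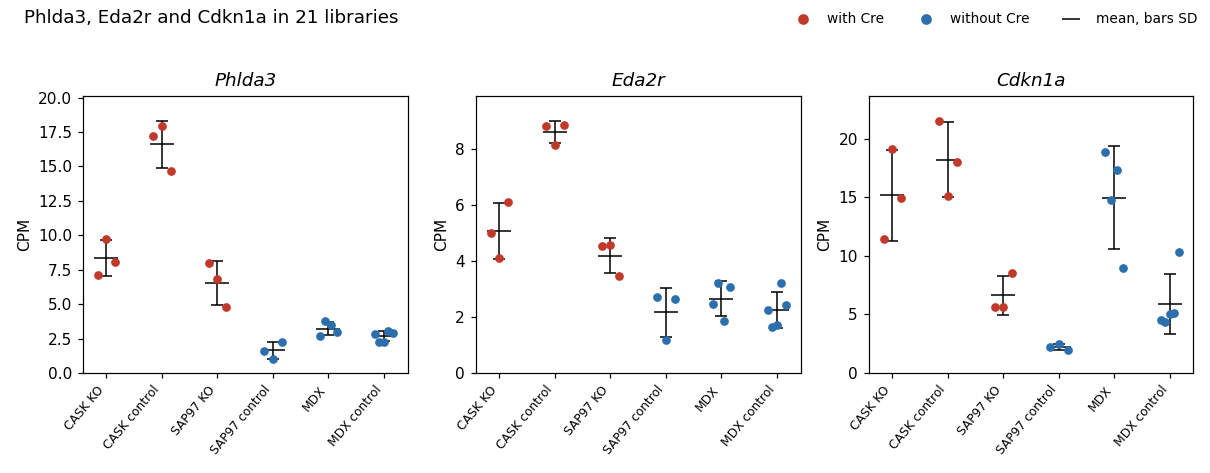
CPM of Phlda3, Eda2r and Cdkn1a (vertical axes, each from 0) in every library of the 6 groups (horizontal axis). Points are libraries, red with Cre and blue without, and black lines give the mean with SD. For Phlda3 the lowest library with Cre is at 4.82 CPM and the highest without Cre at 3.74 CPM, whereas Cdkn1a is also high in MDX.

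Phlda3 (ENSMUSG00000041801, chromosome 1 of GRCm38, 135766119 to 135769136) reached 7.15, 9.73 and 8.08 CPM in CASK KO, against 17.2, 17.9 and 14.7 CPM in CASK control. It was at 7.96, 6.83 and 4.82 CPM in SAP97 KO, against 1.63, 1.04 and 2.28 CPM in SAP97 control. The MDX libraries had 2.72, 3.74, 3.46 and 2.94 CPM, and the MDX control libraries 2.85, 2.27, 2.27, 3.04 and 2.92 CPM. By group mean the order was CASK control, CASK KO, SAP97 KO, MDX, MDX control and SAP97 control. The ranges of CASK KO and SAP97 KO overlapped, as did those of MDX with MDX control and of MDX control with SAP97 control, and the other neighbours were separate.

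Eda2r (ENSMUSG00000034457, chromosome X, 97333840 to 97377216) followed the same order of groups with the same overlaps. CASK KO libraries had 5.01, 4.11 and 6.11 CPM, against 8.82, 8.16 and 8.89 CPM in CASK control. SAP97 KO libraries had 4.53, 4.58 and 3.46 CPM, against 2.72, 1.17 and 2.65 CPM in SAP97 control. MDX libraries had 2.47, 3.23, 1.85 and 3.08 CPM, and MDX control libraries 2.26, 1.64, 1.70, 3.23 and 2.44 CPM. The lowest library with Cre, SAP97 KO replicate 3, was close to the highest without it, MDX control replicate 4.

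Cdkn1a (ENSMUSG00000023067, chromosome 17, 29090976 to 29100727) encodes p21, an inhibitor of cyclin-dependent kinases, and showed another order. CASK KO libraries held 11.4, 19.2 and 14.9 CPM, against 21.5, 15.1 and 18.0 CPM in CASK control. It was at 5.66, 5.67 and 8.57 CPM in SAP97 KO, against 2.25, 2.43 and 1.95 CPM in SAP97 control. In MDX it reached 18.9, 14.8, 17.3 and 8.92 CPM, against 4.52, 4.33, 5.06, 5.11 and 10.4 CPM in MDX control. MDX, without Cre, overlapped both CASK groups and lay above SAP97 KO. An unnamed gene, AC167363.2, overlaps Cdkn1a on the opposite strand over 1046 bases in GENCODE vM21. Whether counting used strand is not given in the sources used here, so reads of the pair cannot be told apart.

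A comparison with no SAP97 mouse in its contrast set the CASK groups with Cre against the MDX groups without Cre. It asks whether members differ between cardiomyocytes with and without Cre outside the contrast on which Cdkn1a and Phlda3 were selected. The SAP97 libraries still entered the filter, the scaling and the estimate of spread, which were shared by all 21 libraries. Members were also chosen with earlier results of these data known. Calls rest on an adjusted p of at most 0.01 in edgeR, with adjustment over all genes tested. Of the 9 members tested, 9 were higher in the CASK groups. Their median log2 fold change was 0.30, against -0.02 over all 15985 genes. Phlda3 and Eda2r rose, so 2 of 9 members were called higher, against 1.55% of all genes. With only the compared groups in the fit, 2 members were still called, among 244 genes in all. Bax was not among the 9, because its counts changed between the annotation releases of the tables.

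Phlda3 averaged 12.5 CPM in the 6 CASK libraries and 2.91 CPM in the 9 MDX-line libraries, a ratio of 4.28 and a log2 fold change of 2.001 (SE 0.15, adjusted p = 5.17e-08). Eda2r averaged 6.85 CPM and 2.43 CPM in the same groups, a ratio of 2.82 and a log2 fold change of 1.43 (SE 0.19, adjusted p = 6.68e-05). Their libraries did not overlap, which held for 0.87% of all genes in this direction. The call of Eda2r rested on CASK control. With CASK KO alone against the MDX groups, a comparison added after the data were seen, Phlda3 was still called, at 1.50 (SE 0.18, adjusted p = 6.01e-05), whereas Eda2r had 1.05 (SE 0.23, adjusted p = 0.0365) and Cdkn1a 0.70 (SE 0.24, adjusted p = 0.370) on the log2 scale.

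Cdkn1a averaged 16.7 CPM in the CASK libraries and 9.92 CPM in the MDX-line libraries, with a log2 fold change of 0.83 (SE 0.20, adjusted p = 0.0154), and missed the threshold. With the MDX mice left out, a comparison added after the data were seen, the log2 fold change of Cdkn1a over MDX control alone was 1.51 (SE 0.24, adjusted p = 7.88e-04). Leaving out MDX control replicate 5 also brought Cdkn1a past the threshold (adjusted p = 0.00119).

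The remaining members of this comparison did not pass. Mdm2 had a log2 fold change of 0.30 (SE 0.08, adjusted p = 0.0339) and Ccng1 of 0.29 (SE 0.11, adjusted p = 0.140). At an unadjusted p under 0.05, 5 of 9 members were higher, against 10.2% of all genes, and 0 were lower. Sesn2 had 0.36 (SE 0.18), Trp53inp1 0.30 (SE 0.18), Bbc3 0.16 (SE 0.24) and Trp53 0.09 (SE 0.18) on the log2 scale, and Bax, from counts of 1 release, 0.22 (SE 0.24, adjusted p = 0.649).

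The CASK and MDX lines also differ in strain, in breeding and in the annotation release of their tables, so Cre cannot be told apart from the line here. The samples were sequenced in more than a single round, and the labels do not say which library belongs to which, so no value within a round can be given. With age in weeks as a covariate, 2 members were still called. The macrophage markers (Csf1r, Adgre1, Cd68, Cd163, Mrc1 and Lyz2) summed to 41.9 to 84.2 CPM in the CASK groups and to 26.2 to 50.1 CPM in the MDX groups. Of these 6 genes 5 were higher, and Lyz2 was called (log2 fold change 0.80, SE 0.17, adjusted p = 0.00805). Endothelial markers summed to 114 to 219.9 CPM in the CASK groups and to 147 to 317 CPM in the MDX groups, with 6 of 6 lower and 0 called. Of the 4 atrial genes Nppa was called higher, while Sln, Myl7 and Myl4 had log2 fold changes of -1.80, -1.56 and -1.21 (adjusted p = 0.121, 0.170 and 0.226). Their part in the result was not tested.

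The mice with Cre alone were also set against the wild-type mice. In CASK control against MDX control, 8 of 9 members were higher. Their median log2 fold change was 0.56, against -0.04 over all genes. Phlda3, Eda2r and Cdkn1a rose, so 3 members were called higher, against 1.62% of all genes. At an unadjusted p under 0.05, 6 were higher, against 10.4% of all genes. Phlda3 had a log2 fold change of 2.63 (SE 0.21, adjusted p = 9.90e-08), at 16.6 ± 1.71 CPM in CASK control (SD, n = 3) and 2.67 ± 0.371 CPM in MDX control (SD, n = 5). Eda2r had 1.93 (SE 0.26, adjusted p = 9.05e-05), at 8.62 ± 0.402 CPM and 2.25 ± 0.646 CPM in the same groups. Cdkn1a had 1.64 (SE 0.27, adjusted p = 8.36e-04), at 18.2 ± 3.23 CPM in CASK control and 5.88 ± 2.53 CPM in MDX control. The call of Cdkn1a was lost when the fit held these 8 libraries alone (adjusted p = 0.0189).

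For 5 members every CASK control library lay above every MDX control library, against 7.5% of all genes. Besides the 3 called these were Mdm2 and Ccng1, which did not pass the test. Mdm2 averaged 44.7 ± 0.724 CPM in CASK control and 35.6 ± 2.96 CPM in MDX control (log2 fold change 0.33, SE 0.11, adjusted p = 0.0932). Ccng1 averaged 933 ± 33.8 CPM and 759 ± 102 CPM in the same groups (log2 fold change 0.30, SE 0.15, adjusted p = 0.285). Trp53inp1 had a log2 fold change of 0.69 (SE 0.25, adjusted p = 0.117), Sesn2 of 0.56 (SE 0.24, adjusted p = 0.197) and Bbc3 of 0.37 (SE 0.33, adjusted p = 0.548). Trp53 itself had -0.04 (SE 0.25, adjusted p = 0.947).

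**Figure D2:**
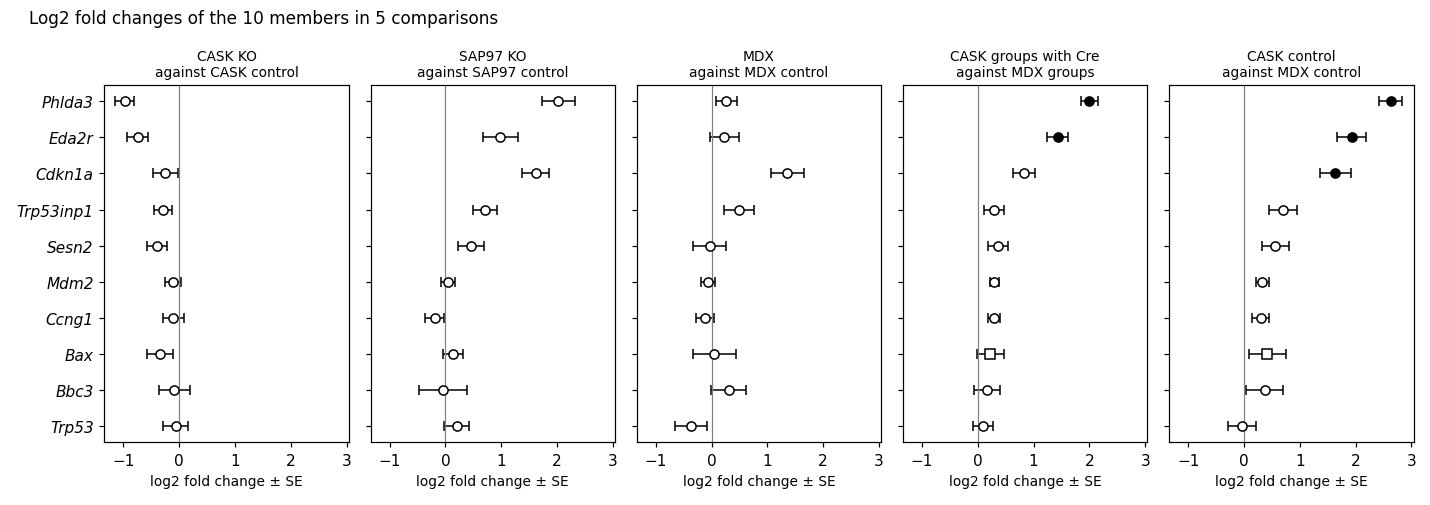
Log2 fold changes of the 10 members (rows) with their standard errors in 5 comparisons (panels). Filled symbols passed an adjusted p of 0.01, open symbols did not or were not tested (SAP97 KO), and squares give Bax from counts of 1 annotation release. Phlda3 runs from -0.98 in CASK KO to 2.63 in CASK control against MDX control.

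Within the CASK line both groups carry Cre, and the members' levels in CASK KO lay on the lower side of CASK control without passing the test. All 10 members passed the filter on low counts and 10 of 10 had a negative log2 fold change, with a median of -0.27 against 0.01 over all 14963 genes. None passed the threshold, and edgeR called 0 genes in all. Cask, the deleted gene, was thus not called either, at 1.50 CPM in CASK KO and 9.11 CPM in CASK control. Not passing therefore does not show that the members were unchanged. At an unadjusted p under 0.05, 2 members were lower, against 4.31% of all genes. Phlda3 had a log2 fold change of -0.98 (SE 0.16, adjusted p = 0.148), from 277, 369 and 300 counts in CASK KO and 733, 602 and 542 counts in CASK control. Eda2r had -0.74 (SE 0.19, adjusted p = 0.300). DESeq2 called Phlda3 (adjusted p = 1.66e-04), among 116 genes, and so did edgeR without a filter on low counts (adjusted p = 0.00220), among 182 genes. With the replicate number as a block, edgeR called 11 genes and 0 members, with an adjusted p of 0.0488 for Phlda3.

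Groups did not overlap, with CASK KO below CASK control, for 4 members, against 7.83% of all genes. These were Phlda3, Eda2r, Trp53inp1 and Sesn2. Trp53inp1, a nuclear protein that promotes p53-dependent death, had 14.7, 15.9 and 15.4 CPM in CASK KO, against 17.8, 16.3 and 22.9 CPM in CASK control (log2 fold change -0.29, SE 0.16, adjusted p = 0.698). Sesn2, a sestrin that restrains mTORC1, had 3.51, 3.01 and 3.50 CPM in CASK KO, against 4.28, 4.97 and 4.17 CPM in CASK control (log2 fold change -0.40, SE 0.18, adjusted p = 0.581). Cdkn1a overlapped between the groups, with a log2 fold change of -0.25 (SE 0.22, adjusted p = 0.828). The first of the CASK KO libraries had the highest share of read pairs outside genes, 12.6%, against 3.17 to 5.73% in the other CASK libraries, and its part in these values was not tested.

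In SAP97 KO against SAP97 control, 8 of 10 members were higher and 2 lower. Phlda3 had a log2 fold change of 2.03 (SE 0.30), Cdkn1a of 1.62 (SE 0.24) and Eda2r of 0.98 (SE 0.32). Trp53inp1 had 0.70 (SE 0.21), at 14.6, 16.2 and 18.7 CPM in SAP97 KO and 13.4, 7.56 and 10.2 CPM in SAP97 control, and Sesn2 had 0.46 (SE 0.23). These 5 members lay higher in every SAP97 KO library than in any SAP97 control library, whereas 6.4% of all genes did. Ccng1 had -0.19 (SE 0.17) and Bbc3 -0.04 (SE 0.43), and Mdm2, Bax and Trp53 lay between 0.05 and 0.20. Since members were selected on this comparison, nothing is read from these counts. SAP97 KO differed from SAP97 control by both Cre and the deletion, which cannot be told apart here. The macrophage sums overlapped, at 29.2 to 38.8 CPM in SAP97 KO and 25.2 to 37.8 CPM in SAP97 control. The atrial sums did not, at 70.9 to 81.2 CPM in SAP97 KO and 43.0 to 62.7 CPM in SAP97 control, with 1 of 4 atrial genes higher, Nppa, and 3 lower. Their part in the values of members was not tested.

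The same description over all 3 groups with Cre against all 3 without gave log2 fold changes of 1.996 (SE 0.13) for Phlda3, 1.27 (SE 0.16) for Eda2r and 1.08 (SE 0.17) for Cdkn1a. Trp53inp1 had 0.42 (SE 0.15), Sesn2 0.38 (SE 0.15), Mdm2 0.20 (SE 0.07), Ccng1 0.12 (SE 0.09), Trp53 0.12 (SE 0.15) and Bbc3 0.08 (SE 0.20).

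Neither MDX group carries Cre, and there Cdkn1a was the member that stood out. Its log2 fold change in MDX against MDX control was 1.35 (SE 0.30, adjusted p = 0.607), so it missed the threshold, as did all 14994 genes tested. Dmd, the mutated gene, was thus not called either, at 104 CPM in MDX and 298 CPM in MDX control. Not passing does not show here that the members were unchanged. At an unadjusted p under 0.05, 1 member was higher, Cdkn1a, against 1.28% of all genes. For 0 of 10 members were all MDX libraries above all MDX control libraries, against 0.626% of all genes. The overlap of Cdkn1a came from both replicates 5, the backcrossed mice, at 8.92 CPM in MDX and 10.4 CPM in MDX control. In the other mice it was at 14.8 to 18.9 CPM in MDX and at 4.33 to 5.11 CPM in MDX control. Without both backcrossed mice, a comparison added after the data were seen, its log2 fold change was 1.82 (SE 0.16, adjusted p = 0.0165). The mice left in that fit differ between the groups in strain as well as in the MDX allele, and these cannot be told apart. Between both replicates 5, Cdkn1a was not higher in MDX. These libraries also had the highest shares of counts in mt-Rnr2, 38.0% in MDX and 37.7% in MDX control. No other library passed 33.1%. The part of this share in the values of Cdkn1a was not tested. Phlda3, at 0.26 (SE 0.19, adjusted p = 1), and Eda2r, at 0.23 (SE 0.26, adjusted p = 1), had overlapping groups. Trp53inp1 had 0.49 (SE 0.27, adjusted p = 1) and Trp53 -0.37 (SE 0.29, adjusted p = 1).

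Whether the CASK and MDX effects differ was tested in the model of all 6 groups. The log2 fold change of Cdkn1a was lower in CASK KO than in MDX by a difference of -1.62 (SE 0.40, adjusted p = 0.172), and that of Phlda3 by -1.26 (SE 0.30, adjusted p = 0.154). No member passed, against 0.0751% of all genes. The 9 members had unadjusted p-values from 4.93e-04 to 0.960.

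Mdm2 and Ccng1 feed back on p53. Ccng1 encodes cyclin G1, which acts through Mdm2. Per kilobase of exon, Ccng1 was the highest of the members in MDX control cells, at 216 CPM per kb, followed by Mdm2 at 7.02, Cdkn1a at 2.64, Bax at 2.07, Trp53inp1 at 1.81, Phlda3 at 1.71, Trp53 at 0.967, Sesn2 at 0.880, Bbc3 at 0.566 and Eda2r at 0.383. Group means of Ccng1 lay between 702 CPM in MDX and 954 CPM in SAP97 control, and all neighbours in this order overlapped. Mdm2 (ENSMUSG00000020184, chromosome 10, 117688875 to 117710758) had group means between 44.7 CPM in CASK control and 34.0 CPM in MDX, again with all neighbours overlapping. In SAP97 KO it was at 38.0, 43.1 and 36.3 CPM, against 40.6, 35.6 and 39.9 CPM in SAP97 control.

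**Figure D3:**
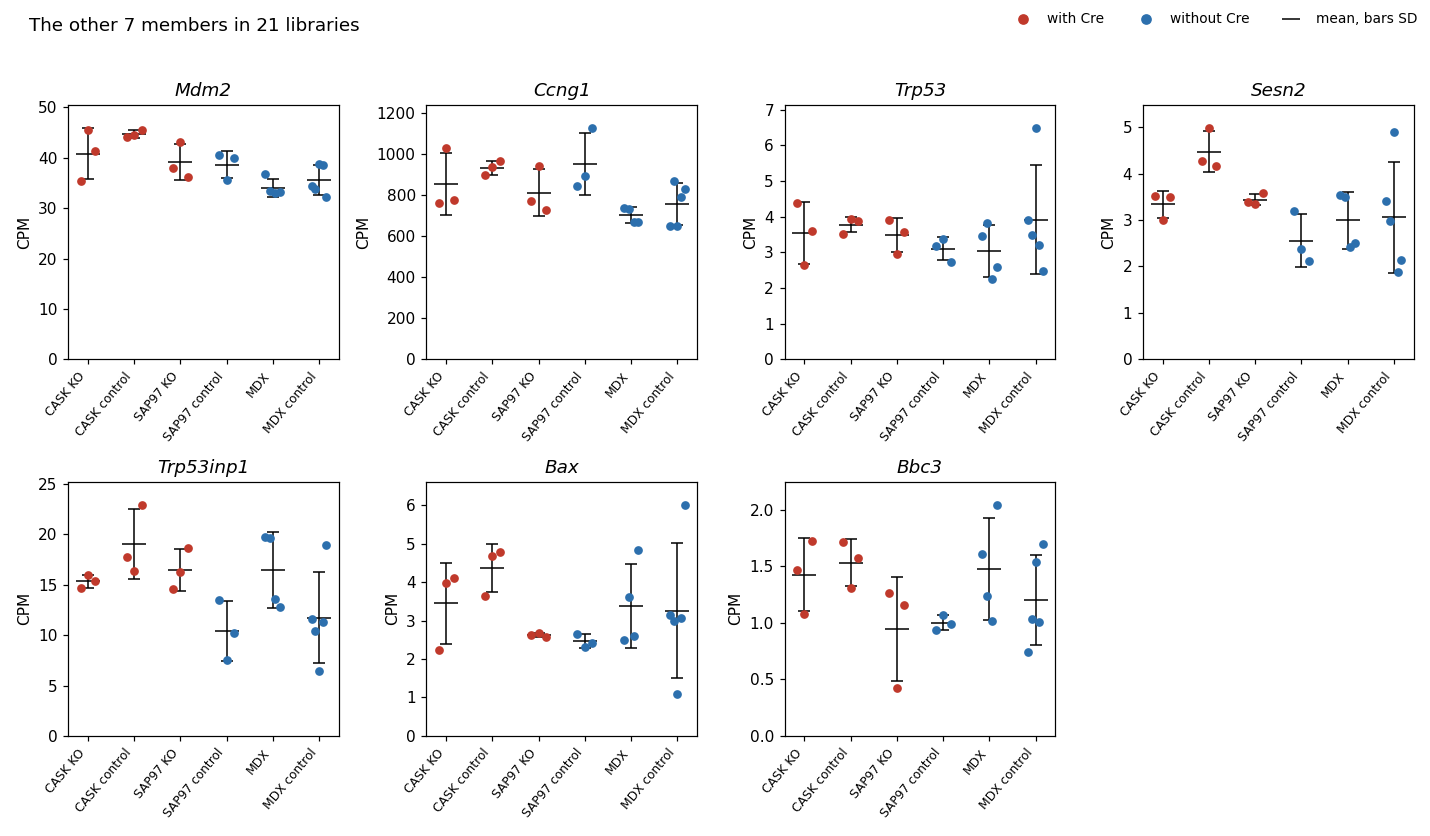
CPM of the other 7 members (vertical axes, each from 0) in every library of the 6 groups (horizontal axis). Points are libraries, red with Cre and blue without, and black lines give the mean with SD. Libraries with and without Cre overlap in all 7 panels, and 1 MDX control library is at 6.48 CPM for Trp53 and at 1.08 CPM for Bax.

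Trp53 messenger (ENSMUSG00000059552, chromosome 11, 69580359 to 69591873) ran from 2.26 to 6.48 CPM over all libraries, and all neighbouring groups overlapped. The highest library was MDX control replicate 3, with 114 counts. Trp53 averaged 3.54 ± 0.877 CPM in CASK KO and 3.78 ± 0.218 CPM in CASK control (SD, n = 3 each), and 3.03 ± 0.729 CPM in MDX (SD, n = 4) and 3.91 ± 1.53 CPM in MDX control (SD, n = 5). SAP97 KO averaged 3.48 ± 0.486 CPM and SAP97 control 3.10 ± 0.324 CPM (SD, n = 3 each). Libraries with and without Cre overlapped for the messenger of p53, unlike those for Phlda3 and Eda2r.

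Bax and Bbc3, which encodes Puma, are members of the Bcl-2 family that drive apoptosis at mitochondria. Bax had 2.24, 3.98 and 4.12 CPM in CASK KO, against 3.65, 4.67 and 4.79 CPM in CASK control. It was at 2.62, 2.68 and 2.57 CPM in SAP97 KO, against 2.66, 2.30 and 2.41 CPM in SAP97 control, so these 2 groups overlapped. Over both MDX groups it ran from 1.08 to 6.01 CPM. These levels are from counts of 1 annotation release. The same 12 CASK and SAP97 libraries held 2088 counts of Bax in their comparison tables and 1355 in the deposited table across conditions. That table lacks replicates 4 and 5 of both MDX groups. Gm45808 overlaps Bax on the same strand over 915 bases. Bbc3 had 12 to 73 counts per library, at 0.423 to 2.04 CPM, and all neighbouring groups overlapped. Sesn2 is overlapped on its own strand by Gm12981 over 6089 bases.

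Other p53 targets were read from a list of 38 genes, of which 36 were tested across the lines. In the CASK groups against the MDX groups, 20 were higher and 16 lower, with a median log2 fold change of 0.08, and 2 were called higher, against 1.55% of all genes, and 0 lower. At an unadjusted p under 0.05, 10 were higher, against 10.2% of all genes, and 6 lower, against 10.4% of all genes. Aen, an exonuclease of apoptosis, averaged 38.6 ± 6.36 CPM in CASK KO and 43.1 ± 2.14 CPM in CASK control (SD, n = 3 each), against 23.6 ± 3.00 CPM in MDX (SD, n = 4) and 23.7 ± 5.93 CPM in MDX control (SD, n = 5). Its log2 fold change was 0.79 (SE 0.12, adjusted p = 4.97e-04). Gdf15, a secreted stress hormone, had a log2 fold change of 2.28 (SE 0.28, adjusted p = 3.10e-05). Its level was 5.16 ± 2.54 CPM in CASK KO and 26.1 ± 13.0 CPM in CASK control (SD, n = 3 each), and MDX had 2.09 ± 0.724 CPM (SD, n = 4) and MDX control 2.78 ± 1.22 CPM (SD, n = 5).

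In CASK control against MDX control, 22 of the 36 were higher and 14 lower, and 3 were called, all higher, against 1.62% of all genes. They were Aen (0.86, SE 0.17, adjusted p = 0.00406), Gdf15 (3.25, SE 0.38, adjusted p = 2.39e-05) and Perp (1.01, SE 0.17, adjusted p = 0.00124) on the log2 scale. Perp, a membrane protein of desmosomes, was at 89.8 ± 7.38 CPM in CASK KO, 153 ± 27.0 CPM in CASK control (SD, n = 3 each) and 75.9 ± 15.5 CPM in MDX control (SD, n = 5).

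The target with the largest change of each role was named, passed or not. In the CASK groups against the MDX groups, the stress kinase gene Plk3 had a log2 fold change of -1.23 (SE 0.27, adjusted p = 0.0102), Ddit4, an inhibitor of mTORC1, -0.80 (SE 0.40, adjusted p = 0.272) and the DNA repair gene Ddb2 -0.48 (SE 0.30, adjusted p = 0.393). The feedback gene Rchy1 had 0.08 (SE 0.14, adjusted p = 0.789).

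In SAP97 KO against SAP97 control, 17 of 30 tested targets outside the members were higher and 13 lower, with a median of 0.09 against 0.03 over all genes, and 0 were called. By unadjusted p under 0.05, 4 were higher, against 4.69% of all genes, and 1 was lower, against 3.28% of all genes. The largest in each group of targets were Pvt1 at 1.19 (SE 0.37, adjusted p = 0.603), the death receptor gene Tnfrsf10b at 0.82 (SE 0.32, adjusted p = 0.622), the RNA-binding Zmat3 at 0.49 (SE 0.24, adjusted p = 0.651), the DNA repair gene Xpc at 0.34 (SE 0.16, adjusted p = 0.648), the p53 phosphatase gene Ppm1d at 0.26 (SE 0.24, adjusted p = 0.764) and Ddit4 at -0.95 (SE 0.36, adjusted p = 0.622). In CASK KO against CASK control 16 of 35 were higher and 19 lower, and in MDX against MDX control 17 of 31 were higher and 14 lower, with 0 called in either.

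**Figure D4:**
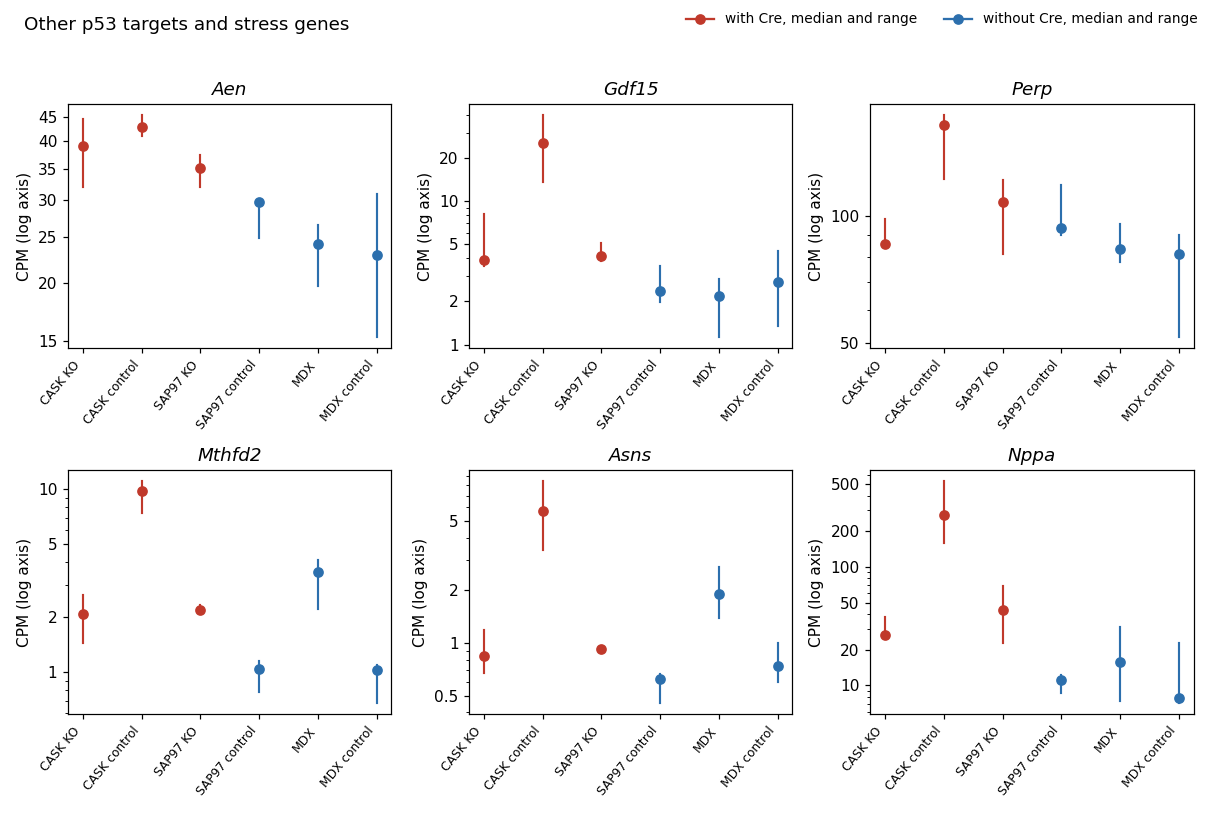
CPM of Aen, Gdf15, Perp, Mthfd2, Asns and Nppa (vertical axes, log scale) in the 6 groups (horizontal axis). Points are medians and lines run from the lowest to the highest library, red with Cre and blue without. CASK control has the highest median in all 6 panels, for Nppa 276 CPM, against 7.78 CPM in MDX control.

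Several genes of the integrated stress response, which is read through Atf4 and can raise Gdf15 apart from p53, were high in the same CASK control libraries. Of 10 tested, 7 were higher and 3 lower in CASK control against MDX control. The lower were Atf3 at -1.76 (SE 0.47, adjusted p = 0.0358 in edgeR), Ddit3 at -0.74 (SE 0.41, adjusted p = 0.319) and Atf4 at -0.09 (SE 0.25, adjusted p = 0.875). In CASK control against MDX control, 5 of 10 tested genes were called, all higher, against 1.62% of all genes, namely Mthfd2 at 3.30 (SE 0.23, adjusted p = 4.74e-08), Asns at 2.96 (SE 0.28, adjusted p = 2.05e-06), Fgf21 at 4.78 (SE 0.73, adjusted p = 3.68e-04), Trib3 at 2.38 (SE 0.28, adjusted p = 2.91e-05) and Psat1 at 2.36 (SE 0.36, adjusted p = 3.77e-04) on the log2 scale. Fgf21 had 0 to 4 counts in MDX control, so its fitted value is no bound, and its log2 fold change in the CASK against the MDX groups was 2.01 (SE 0.54, adjusted p = 0.0315). In the CASK groups against the MDX groups, Mthfd2 (1.30, SE 0.17, adjusted p = 6.04e-05) and Psat1 (1.47, SE 0.26, adjusted p = 0.00189) were called. Psat1 also had the largest change of these genes in SAP97 KO, at 1.30 (SE 0.40, adjusted p = 0.598). Nppa was called in both, at 4.74 (SE 0.50, adjusted p = 9.54e-06) and 2.77 (SE 0.35, adjusted p = 5.00e-05). Atf3 was lower over all 3 groups with Cre, at -1.27 (SE 0.28, adjusted p = 0.00895). In MDX against MDX control, where Cdkn1a had its high values, 4 of 9 tested genes of this response were higher at an unadjusted p under 0.05, against 1.28% of all genes, and 0 were called. Mthfd2 had 1.81 (SE 0.25, adjusted p = 0.0793), Asns 1.39 (SE 0.28, adjusted p = 0.371), Trib3 1.15 (SE 0.28, adjusted p = 0.769) and Chac1 0.72 (SE 0.31, adjusted p = 1) there. The part of these genes in the values of members was not tested.

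The pattern of the members over the libraries was compared by Pearson correlation of log2(CPM + 1) over 21 libraries, which share groups and so are not independent points. The pair most alike were Phlda3 and Eda2r (r = 0.94, Spearman's rho = 0.90), whereas Cdkn1a and Phlda3 had r = 0.68 and rho = 0.74. Of all genes tested, those most like Phlda3 were Pcolce2 (r = 0.95), Eda2r, Ephx1 (r = 0.94), Fam198b (r = 0.91) and St6galnac4 (r = 0.905). Those most like Cdkn1a were Baiap2 (r = 0.88), Ndrg4 (r = 0.81), Rpl3 (r = 0.81), Tgfbi (r = 0.80) and Fam124a (r = 0.79). Rpl3 is a ribosomal protein gene with near-identical copies, so its counts are uncertain.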

How the data were processed

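The deposited counts are whole read pairs per gene with no scaling. Reads of ribosomal RNA had been taken out by the authors before alignment to GRCm38 and counting per Ensembl gene. Listed tools in the submitters' processing notes are HTSeq 0.6.1, TopHat2 2.0.13, Bowtie2 2.2.1, DESeq2 1.10.1 and FastQC 0.11.2. Sources differ on the Ensembl release and on selection by poly-A or removal of ribosomal RNA. Counts of the 3 deposited comparison tables were used, 1 library per mouse, with the deposited exon lengths. The authors' own fold changes, p-values and TPM in these files were not used.

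Each line was fitted from its own table in edgeR 4.0.16 (R 4.3.3), with filterByExpr, TMM and the 2-sided quasi-likelihood F test. P-values were adjusted by Benjamini-Hochberg over all genes tested, and 0.01 was the threshold for a call, as in the study. Comparisons across lines used 1 model of 21 libraries over the 45956 genes with summed counts that differed by no more than 1.1 times between tables, which leaves out Bax. The standard error is the log2 fold change over the square root of F. Fits were tested on simulated data. DESeq2 1.42.0, its size factors in edgeR, no filter, a replicate block, age and leaving out each library were alternatives, and 4 more were added after seeing the data.

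The members and lists were chosen with earlier results of these data known. All members are named. From the other lists were named each gene called in any comparison, at most 6 a list, and the largest change of each list of genes other than cell markers in SAP97 KO and in the CASK against the MDX groups. For Cdkn1a and Phlda3 the 5 most alike genes were named.

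Replicate numbers were checked for pairing. In the CASK line, same-numbered libraries deviated together, with correlations of 0.44, 0.23 and 0.21, so the block is given there. In the SAP97 line they were 0.01, 0.10 and -0.34, and in the MDX line -0.07, 0.06, 0.42 and 0.65. Depth was 24253610 to 42159185 counts per library, and errors cover the spread between mice. Python 3.11.15, pandas 2.3.3, numpy 2.4.6 and matplotlib 3.10.9 served for tables and plots.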

Additional observations from a re-analysis of the deposited data

Results flagged for a closer look

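Among 20 sets of 4 or 5 libraries, 2 held a library far from the others, where chance gives about 1 in 20. Cdkn1a was at 10.4 CPM in MDX control replicate 5, against 4.33 to 5.11 CPM in the other MDX control libraries. That library is from a backcrossed mouse and had 37.7% of its counts in mt-Rnr2. Mdm2 was at 36.7 CPM in MDX replicate 2, against 33.0 to 33.3 CPM in the other MDX libraries.

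For 4 members all CASK KO libraries lay below all CASK control libraries, while all SAP97 KO libraries lay above all SAP97 control libraries, a joint pattern that 1.2% of all 15985 genes showed. Their log2 fold changes in CASK KO and SAP97 KO were -0.98 and 2.03 for Phlda3, -0.74 and 0.98 for Eda2r, -0.29 and 0.70 for Trp53inp1 and -0.40 and 0.46 for Sesn2. The difference between both effects was not tested, because SAP97 KO served to select members, and the CASK control carries Cre while the SAP97 control does not. Since Phlda3 was selected on its rise in SAP97 KO, nothing is read from the count of members with the joint pattern.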

How the results depend on the processing

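Of 943 recomputed log2 fold changes of members, 917 kept their direction and their side of the threshold (or, where no test was made, stayed within 1 SE), and of 101 recomputed counts of called members 95 stayed within 1.5 times. Of these counts, 10 are from SAP97 KO and 27 from the 3 groups with Cre against the 3 without. Both comparisons hold the values that served to select members, so nothing is read from them. In MDX all 14 counts were 0, as in the main fit. In the CASK against the MDX groups, Phlda3 was called in 25 of 25 alternatives, Eda2r in 24 and Cdkn1a in 4. In CASK control against MDX control, Phlda3 and Eda2r were called in 15 of 15 and Cdkn1a in 14. CASK KO alone against the MDX groups gave 1 called member, Phlda3, and 51 genes in all.

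DESeq2 called 4 members in the CASK against the MDX groups, where edgeR called 2, the others being Cdkn1a and Mdm2 (adjusted p = 0.00246 and 0.00243). DESeq2 and edgeR without a filter each called 1 member in CASK KO, where edgeR called 0. They gave 2 against 0 in SAP97 KO, from which nothing is read because members were selected there. Leaving out each library gave 2 to 3 called members in the CASK against the MDX groups. Log2 fold changes near 0 turned sign: with the replicate block, Sesn2 in MDX to 0.087 and Trp53 in the CASK against the MDX groups to -0.17, and Trp53 against MDX control alone to -0.088. With 1 library left out, Trp53 and Bbc3 ran from -0.26 to 0.11 and from -0.24 to 0.083 in CASK KO, Bax and Sesn2 from -0.17 to 0.37 and from -0.16 to 0.20 in MDX, and Trp53 from -0.18 to 0.18 in CASK control against MDX control.

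Counts over all genes moved more. In the CASK against the MDX groups, edgeR called 364 genes, DESeq2 779, edgeR without a filter 723, with MDX control alone 210 and without CASK control replicates 1 and 2 in turn 214 and 182. For CASK control against MDX control these were 352, 708 and 701, with 81 from its 8 libraries alone and 169 and 151 without CASK control replicates 1 and 2. Over the 3 groups with and without Cre they were 352, 648 and 583. In SAP97 KO, edgeR called 3 genes, DESeq2 49, edgeR without a filter 134, the replicate block 0 and the fits with 1 library left out 0 to 2. In MDX these were 0, 22 and 6. The causes were not tested. The block changed no call of a member in any line. Bbc3 had 12 to 73 counts per library, so its values have a wide counting error.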

Other observations

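Cell cycle genes that are repressed through p21 were near the limit of detection in these cardiomyocytes. Of 13 listed genes, 8 were tested across the lines, and 1 was higher and 7 lower in the CASK groups than in the MDX groups. Their median log2 fold change was -0.62, and 0 were called. Ccna2, which encodes cyclin A2, had the largest change, at -1.22 (SE 0.48, adjusted p = 0.150 in edgeR), from 4 to 16 counts in the CASK libraries and 1 to 42 counts in the MDX-line libraries. In SAP97 KO against SAP97 control 5 were tested, of which 4 were higher and 1 lower, with a median of 0.03. Cdk1 was at 0.92 (SE 0.60, adjusted p = 0.696) there. Of 6 tested in MDX against MDX control, 3 were higher and 3 lower. Of 4 tested in CASK KO against CASK control, 1 was higher and 3 lower.

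Of 13 tested genes on a list of regulators of p53, its relatives and Trp53 itself, 7 were higher and 6 lower in the CASK groups against the MDX groups. None was called. Trp63 had the largest change, at -1.25 (SE 0.49, adjusted p = 0.154), from 2 to 29 counts per library over the series. In SAP97 KO against SAP97 control 12 of 13 were higher, as were 8063 of all 14722 genes. Nothing is read from this count, since it holds Trp53, a member. The median log2 fold change of the 13 was 0.10, against 0.03 over all genes. The kinase gene Hipk2 had the largest change of the list, at 0.36 (SE 0.22, adjusted p = 0.687).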
